A study of Mus musculus with 25 samples.

Results

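H3K27me3 deposition was examined at 37 genes of the Wnt system, namely 19 Wnt ligands, 10 Frizzled (Fzd) receptors and 8 secreted antagonists of the Sfrp and Dkk families. A gene was counted in a peak list when the authors had assigned at least 1 peak of that list to its symbol. By this rule 23 of the 37 genes (62.2%) had a peak in at least 1 of 12 H3K27me3 lists, with 175 of the 34244 peaks listed and 23 of the 6091 genes that had any peak. Of all RefSeq protein-coding genes, 19.7% had a peak by the same rule.

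The lists came from chromatin immunoprecipitation sequencing (ChIP-seq) of mouse tibialis anterior muscle fibers regenerating at 14 days post injury (dpi), in wild-type, mfn2-/-, vhl-/- and HIF1dPA animals, with 3 libraries of each genotype. All 4 genotypes, the wild-type controls included, carried a mito-Dendra2 reporter under a Pax7-Cre(ERT2) driver and received tamoxifen at 75 mg/kg daily for 5 days, then 50 µL of 1.2% BaCl2 into the muscle to injure it. The mfn2-/- fibers lacked mitofusin 2, a protein of the mitochondrial outer membrane; the vhl-/- fibers lacked the ubiquitin ligase component that recognises HIF1α; and HIF1dPA is a form of HIF1α, with prolines replaced by alanines, that this ligase does not recognise. The ages and sexes of the animals are not given in the sources used here. The Pax7 driver recombines in muscle stem cells, so the alleles were altered in fibers built from those cells and not in the other cells of the muscle. Dendra2+ fibers were dissected from the muscle, and in such chromatin fewer nuclei with the mark cannot be told apart from less mark per nucleus. The study describes the 3 libraries of a genotype as biological replicates.

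Wnt proteins are secreted, lipid-modified ligands that bind Frizzled receptors together with Lrp5 or Lrp6. In the canonical branch this stabilises β-catenin, which acts with Tcf and Lef factors in the nucleus, while other branches act on cell polarity and calcium. Sfrp proteins bind Wnt ligands outside the cell, and several Dkk proteins, Dkk1 among them, bind the Lrp co-receptors. In regenerating muscle, Wnt signals act on stem cells and on the differentiation of their progeny. H3K27me3 is written by Polycomb repressive complex 2, and developmental regulators with CG-rich promoters, Wnt genes among them, are known to carry it in cells that do not express them.

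The promoters below are shown because they are the sequences over which the peaks lay, or did not lie. A window of 300 bases (250 before and 50 after the start site) was given by RefSeq, on GRCm38.p6, for 25 of the 37 genes. The other 12 genes are named after the sequences. A peak overlapped the window of 10 of these 25 genes in at least 1 list, and of 5 genes in at least 2 lists: Wnt1 in 3 lists, and Wnt2, Sfrp2, Dkk1 and Sfrp5 in 2 lists each. Wnt2b and Wnt16 are shown because both had a peak in every wild-type list and in no HIF1dPA list, and Fzd7 because it had no peak in any list. The 250 bases before each start site are printed from 5′ to 3′ on the strand of the gene, with every CG dinucleotide in capitals.

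Wnt1 (chr15:98789607-98789856, plus strand): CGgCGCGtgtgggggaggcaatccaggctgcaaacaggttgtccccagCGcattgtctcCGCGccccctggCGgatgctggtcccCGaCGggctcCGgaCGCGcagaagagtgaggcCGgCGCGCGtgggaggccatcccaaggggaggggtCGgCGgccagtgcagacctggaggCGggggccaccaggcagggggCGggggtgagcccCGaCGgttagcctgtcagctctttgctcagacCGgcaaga
Wnt2 (chr6:18030446-18030695, minus strand): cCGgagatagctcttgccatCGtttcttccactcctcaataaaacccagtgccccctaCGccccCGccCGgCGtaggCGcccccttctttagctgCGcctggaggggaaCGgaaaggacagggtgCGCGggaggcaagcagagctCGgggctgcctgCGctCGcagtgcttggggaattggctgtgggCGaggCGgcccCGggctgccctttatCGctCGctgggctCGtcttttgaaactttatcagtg
Sfrp2 (chr3:83766071-83766320, plus strand): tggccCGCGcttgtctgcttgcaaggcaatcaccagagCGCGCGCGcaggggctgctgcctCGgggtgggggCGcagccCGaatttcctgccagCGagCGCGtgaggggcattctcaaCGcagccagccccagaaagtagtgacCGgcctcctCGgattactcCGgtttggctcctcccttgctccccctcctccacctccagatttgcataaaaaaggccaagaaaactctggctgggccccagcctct
Dkk1 (chr19:30549497-30549746, minus strand): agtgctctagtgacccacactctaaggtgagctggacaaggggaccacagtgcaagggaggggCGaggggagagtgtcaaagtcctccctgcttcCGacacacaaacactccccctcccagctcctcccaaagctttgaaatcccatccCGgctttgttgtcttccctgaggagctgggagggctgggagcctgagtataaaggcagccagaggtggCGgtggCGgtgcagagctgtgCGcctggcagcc
Sfrp5 (chr19:42202253-42202502, minus strand): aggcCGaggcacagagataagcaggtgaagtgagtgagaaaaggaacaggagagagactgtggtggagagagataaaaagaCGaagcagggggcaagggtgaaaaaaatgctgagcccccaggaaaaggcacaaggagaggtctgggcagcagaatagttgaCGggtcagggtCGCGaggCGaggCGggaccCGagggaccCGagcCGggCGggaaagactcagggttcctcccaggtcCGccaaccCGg
Wnt2b (chr3:104961710-104961959, minus strand): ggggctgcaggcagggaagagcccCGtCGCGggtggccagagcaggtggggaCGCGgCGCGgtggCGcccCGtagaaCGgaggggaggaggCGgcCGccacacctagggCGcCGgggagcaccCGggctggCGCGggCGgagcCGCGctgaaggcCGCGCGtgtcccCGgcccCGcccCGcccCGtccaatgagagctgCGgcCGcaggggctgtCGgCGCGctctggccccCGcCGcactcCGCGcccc
Wnt16 (chr6:22287977-22288226, plus strand): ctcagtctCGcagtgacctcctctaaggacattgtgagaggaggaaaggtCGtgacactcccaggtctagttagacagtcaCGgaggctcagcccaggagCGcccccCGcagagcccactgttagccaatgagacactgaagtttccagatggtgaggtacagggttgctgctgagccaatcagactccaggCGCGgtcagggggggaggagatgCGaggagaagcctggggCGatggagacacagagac
Fzd7 (chr1:59481897-59482146, plus strand): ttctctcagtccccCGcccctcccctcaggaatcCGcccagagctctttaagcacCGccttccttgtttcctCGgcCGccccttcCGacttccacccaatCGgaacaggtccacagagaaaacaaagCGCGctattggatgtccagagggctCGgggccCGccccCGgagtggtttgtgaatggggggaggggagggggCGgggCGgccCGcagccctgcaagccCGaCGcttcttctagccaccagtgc

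The windows of these genes differed widely in CG content. The 250 bases printed held 36 CG dinucleotides at Wnt2b and 23 at Wnt1, against 6 at Dkk1 and 9 at Wnt16. Over the full 300 bases, the 28 windows of the 25 genes held a median of 26.5 CG dinucleotides, and the 32851 windows of all genes a median of 7. The ratio of observed to expected CG exceeded 0.6 in 75.0% of the Wnt gene windows and in 35.8% of all windows. All 5 Frizzled windows of genes with no assigned peak exceeded this ratio. Their median was 32 CG dinucleotides, and the 17 windows of genes with a peak had a median of 26.

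**Figure D1:**
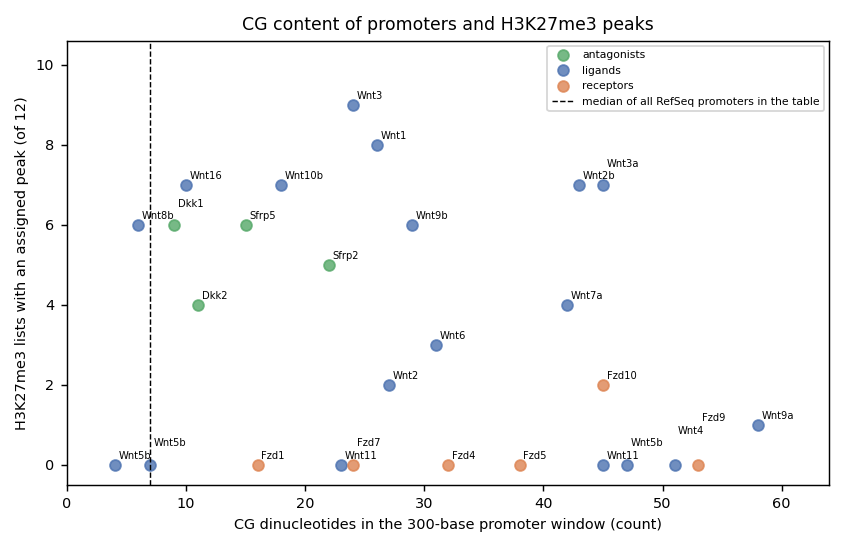
CG dinucleotides in the 300-base promoter window (x axis, count) against the number of H3K27me3 lists, of 12, with a peak assigned to the gene (y axis), for the 28 windows of 25 Wnt system genes, coloured by role; Wnt5b and Wnt11 have several windows. The Frizzled receptors lie to the right of the dashed line, the median of 7 for all RefSeq windows, and 5 of the 6 sit at 0 lists.

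The 12 genes without a window were Wnt5a, Wnt7b, Wnt8a, Wnt10a, Fzd2, Fzd3, Fzd6, Fzd8, Sfrp1, Sfrp4, Dkk3 and Dkk4. Letters bound by factors of interest were counted in the same windows on both strands. The core of the HIF site was searched as ACGTG and as GCGTG, which differ in the first base. ACGTG was present in 14.3% of the Wnt gene windows and 19.6% of all windows, and GCGTG in 53.6% and 32.4%. The Tcf and Lef letters CTTTGAT were found in 7.14% and 3.73%, CTTTGAA in 3.57% and 5.14%, and the MyoD E-box CAGCTG in 7.14% and 16.3%. The CTTTGAA match was in the Dkk1 window. These are matches of letters, and binding at them was not measured.

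The 3 roles were unequally represented. Among ligands 16 of 19 (84.2%) had a peak in at least 1 list, among antagonists 5 of 8 (62.5%), and among receptors 2 of 10 (20.0%). Wnt4, Wnt5b and Wnt11, Fzd1, Fzd2, Fzd4, Fzd5, Fzd6, Fzd7, Fzd8 and Fzd9, and Sfrp4, Dkk3 and Dkk4 had no peak in any H3K27me3 list. The peak numbers followed the same order, with 135 peaks at ligands, 33 at antagonists and 7 at receptors. A peak in at least 4 lists was found for 16 of the 37 genes (43.2%), against 5.88% of all RefSeq protein-coding genes. Fewer than 4 lists held Wnt6 and Sfrp1 (3 lists each), Wnt2, Wnt5a and Fzd10 (2 each), and Wnt8a and Wnt9a (1 each).

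**Figure D2:**
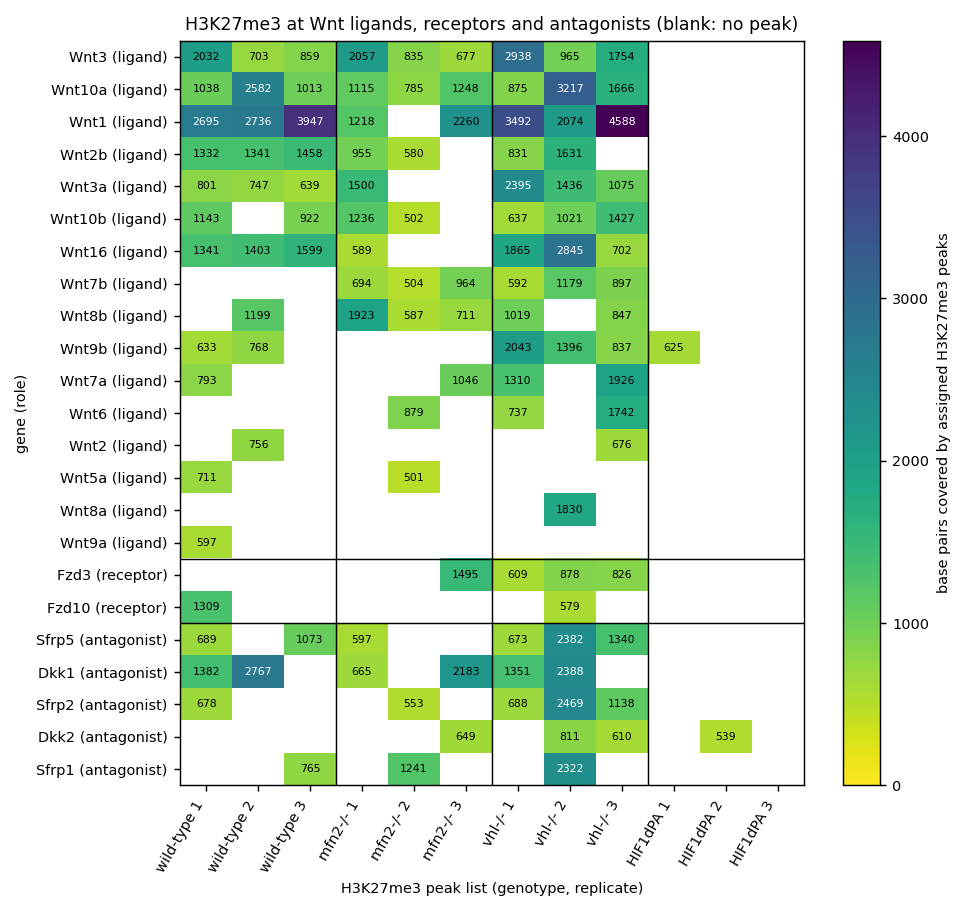
Base pairs covered by the H3K27me3 peaks assigned to each of the 23 genes with a peak (rows, grouped by role and ordered by number of lists) in each of the 12 peak lists (columns, by genotype and replicate); blank cells have no peak. Values run from 501 bp to 4588 bp, and only Wnt9b and Dkk2 have a value in a HIF1dPA list.

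The number of these genes with a peak was 15, 10 and 9 in the wild-type lists, 11, 10 and 9 in the mfn2-/- lists, 16, 17 and 16 in the vhl-/- lists, and 1, 1 and 0 in the HIF1dPA lists. Wild-type and mfn2-/- counts overlapped, all vhl-/- counts lay above both, and all HIF1dPA counts lay below. The means were 11.3 ± 3.21, 10.0 ± 1.00, 16.3 ± 0.577 and 0.667 ± 0.577 (SD, n = 3 each). No p-value was computed for these sums, and 3 lists against 3 cannot go below an exact p of 0.1. The lists themselves differed in length: wild-type, mfn2-/- and vhl-/- lists held 3358 to 4035 peaks at 1615 to 2068 genes, and HIF1dPA lists 482 to 501 peaks at 429 to 434 genes. As a share of the genes in each list, the Wnt system genes made up 0.58% ± 0.137 for wild-type, 0.592% ± 0.0739 for mfn2-/-, 0.826% ± 0.0217 for vhl-/- and 0.155% ± 0.135 for HIF1dPA (SD, n = 3 each). For mfn2-/- the genes in each list include those on the X chromosome, where 30.0% to 30.3% of its peaks lay. The mfn2-/- share is therefore not directly comparable with the others.

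When every list was cut to its 482 highest-scoring peaks, the length of the shortest, the wild-type lists held 0, 1 and 3 of the genes, the mfn2-/- lists 1, 0 and 2, the vhl-/- lists 3, 2 and 1 and the HIF1dPA lists 1, 1 and 0, and all genotypes overlapped. The higher vhl-/- and lower HIF1dPA counts were seen in the lists as deposited. At 482 peaks no list held more than 3 of the genes, so the cut could not show whether either difference remained. The deposited vhl-/- lists held 3636 to 4035 peaks and the wild-type lists 3433 to 3776. Their shares of listed genes were 0.806% to 0.849% and 0.48% to 0.736%. In mfn2-/- lists, 30.0% to 30.3% of peaks lay on the X chromosome, against 0.146% to 0.344% in wild-type; none of the 37 genes is on that chromosome. With X and Y peaks dropped and 474 peaks kept per list, the mean number of these genes was 1.67 in the mfn2-/- lists, where it had been 1.0 at 482 peaks, and 1.33 in the wild-type lists at both lengths.

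**Figure D3:**
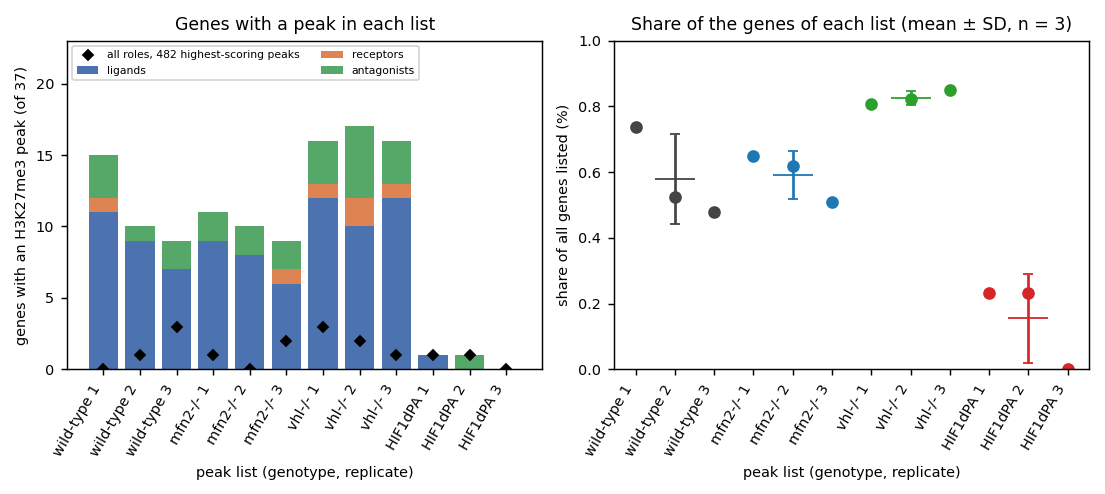
Left, number of the 37 genes with an H3K27me3 peak in each list (bars, stacked by role) and the number among the 482 highest-scoring peaks of the list (diamonds). Right, the same number as a percent of all genes with a peak in that list, with the mean and SD of 3 lists; the 3 vhl-/- points lie between 0.806% and 0.849%, above every wild-type point.

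Covered length, the base pairs under all peaks assigned to a gene in a list, was compared across the 4 genotypes with an exact permutation test for each of the 6091 genes. No gene passed an adjusted p of 0.05 (0% of genes called; lowest adjusted p 0.0989), so no Wnt system gene was called. At an unadjusted p under 0.05 there were 794 genes (13.0%), including 8 of the 23 Wnt system genes tested (34.8%): Wnt1, Wnt2b, Wnt3a, Wnt7b, Wnt9b, Wnt16, Sfrp2 and Sfrp5. All 794 were in at least 3 lists, and among genes in at least 3 lists the shares were 33.2% overall and 44.4% for the Wnt system genes (8 of 18). When wild-type was set against the 9 mutant lists together, 0% of genes were called by adjusted p and 330 genes (5.42%) had an unadjusted p under 0.05, of which Wnt2b was the 1 Wnt system gene (exact permutation test, p = 0.0182, adjusted p = 0.799). With presence in place of length, 0 of 6091 genes were called in either comparison (463 and 199 genes at an unadjusted p under 0.05). Restricted to genes in at least 3 lists, 44 of 2393 genes were called across the 4 genotypes. None was among the 18 Wnt system genes tested, which are too few for this absence to show a difference from that share.

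Of the 37 genes, 6 had a peak in all 3 wild-type lists and in no HIF1dPA list, and all 6 were ligands: Wnt1, Wnt2b, Wnt3, Wnt3a, Wnt10a and Wnt16. This was the case for 389 of all genes (6.39%). Counted from the 762 genes with a peak in all wild-type lists, 51.0% were in no HIF1dPA list, and of the Wnt system genes it was 6 of 6. The reverse, a peak in all HIF1dPA and no wild-type list, was found for 1 gene (0.0164%) and for no Wnt system gene. At 482 peaks a list, wild-type replicate 1 held no Wnt system gene, so none could separate wild-type from HIF1dPA at that length. The loss and the shorter lists cannot be told apart.

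Wnt1 (ENSMUSG00000022997, chr15:98789857-98793830), a canonical ligand known from brain patterning, had the most peaks (25) and the peak with the highest score of the 37 genes. Its peaks covered 2695, 2736 and 3947 bp in wild-type (mean 3130 ± 711, SD, n = 3), 1218, 0 and 2260 bp in mfn2-/- (1160 ± 1130), 3492, 2074 and 4588 bp in vhl-/- (3380 ± 1260) and 0 bp in each HIF1dPA list. All mfn2-/- values were thus below all wild-type values, while wild-type and vhl-/- overlapped. The share of all genes with mfn2-/- values ordered in this way was not computed. The mfn2-/- lists held 1615 to 1772 genes, those on the X included, and the wild-type lists 1876 to 2039. Whether the lower values were particular to Wnt1 was not tested. Across the 4 genotypes the exact permutation p was 0.00896 (adjusted p 0.187). In wild-type replicates 1, 2 and 3 the strongest Wnt1 peak ranked 550 of 3776, 80 of 3443 and 89 of 3433 by score. The peaks ran from -0.869 to 8.89 kb relative to the start site, and 22 of the 25 lay wholly after it. With only peaks scoring at least 100 kept, Wnt1 remained in all wild-type lists and in no HIF1dPA or mfn2-/- list. No other Wnt system gene did. How many of all genes did so was not counted. Median scores of all peaks were 62.1 to 63.7 in wild-type lists, 59.5 to 60.7 in mfn2-/- lists and 55.6 to 56.2 in HIF1dPA lists.

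Wnt2b (ENSMUSG00000027840, chr3:104944805-104961709), a ligand related to Wnt2, covered 1332, 1341 and 1458 bp in wild-type, with the lowest SD (70.3 bp) of the 6 genes in all wild-type lists. It covered 955, 580 and 0 bp in mfn2-/-, 831, 1631 and 0 bp in vhl-/-, and 0 bp in the HIF1dPA lists. Each mfn2-/- and HIF1dPA value was below the lowest wild-type value, and 1 vhl-/- list exceeded the highest. As for Wnt1, the share of all genes ordered in this way was not computed. The exact permutation p across genotypes was 0.0461 (adjusted p 0.361). All 9 of its peaks were in the promoter classes, and 8 of them merged into a region of 2261 bp seen in 7 lists. The peak of 1 wild-type list reached the promoter window, and those of the other lists lay inside the gene.

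Wnt16 (ENSMUSG00000029671, chr6:22288178-22298522), a ligand known from bone, covered 1341, 1403 and 1599 bp in wild-type, 589, 0 and 0 bp in mfn2-/-, 1865, 2845 and 702 bp in vhl-/- and 0 bp in HIF1dPA (exact permutation p = 0.0104, adjusted p 0.187). The mfn2-/- values lay below wild-type, and vhl-/- values lay on both sides of it. The share of all genes with lower mfn2-/- values was not computed. None of the 10 Wnt16 peaks covered the start site of the window printed above. The 9 that lay after it joined into 1 region of 5254 bp seen in 7 lists. Without mfn2-/- replicate 1, Wnt16 and Wnt3a were listed in every wild-type library and in neither mfn2-/- one. With a library left out, separation is easier for any gene, and the share of all genes that separate was not computed.

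Wnt3a (ENSMUSG00000009900, chr11:59248036-59290751), a canonical ligand of early development, covered 801, 747 and 639 bp in wild-type, 1500, 0 and 0 bp in mfn2-/-, 2395, 1436 and 1075 bp in vhl-/- and 0 bp in HIF1dPA (exact permutation p = 0.0429, adjusted p 0.343). Every vhl-/- value was above, and every HIF1dPA value below, all wild-type values. The share of all genes with this order was not computed. The wild-type peaks did not share a place: the edge nearest the start site was 879 bp before it in replicate 1, 2395 bp after it in replicate 2 and 13843 bp after it in replicate 3. In vhl-/- all 3 lists had a peak that met a common merged region of 2517 bp after the start site, which 1 wild-type and 1 mfn2-/- list also met.

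Wnt3 and Wnt10a, both canonical ligands, were the genes in the most lists, 9 each, with a peak in every list but those of HIF1dPA. Wnt3 (ENSMUSG00000000125, chr11:103774175-103818021) covered 2032, 703 and 859 bp in wild-type, 2057, 835 and 677 bp in mfn2-/- and 2938, 965 and 1754 bp in vhl-/-. Wnt10a (ENSMUSG00000026167, chr1:74792019-74804176) covered 1038, 2582 and 1013 bp in wild-type, 1115, 785 and 1248 bp in mfn2-/- and 875, 3217 and 1666 bp in vhl-/-. These 3 genotypes overlapped for both genes, and the tests gave p = 0.0867 for Wnt3 and 0.0603 for Wnt10a (exact permutation, adjusted p 0.547 and 0.429). Of the 16 Wnt10a peaks 2 were in promoter classes, 5 in the 3′ UTR class, 5 distal intergenic and 4 intronic.

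**Figure D4:**
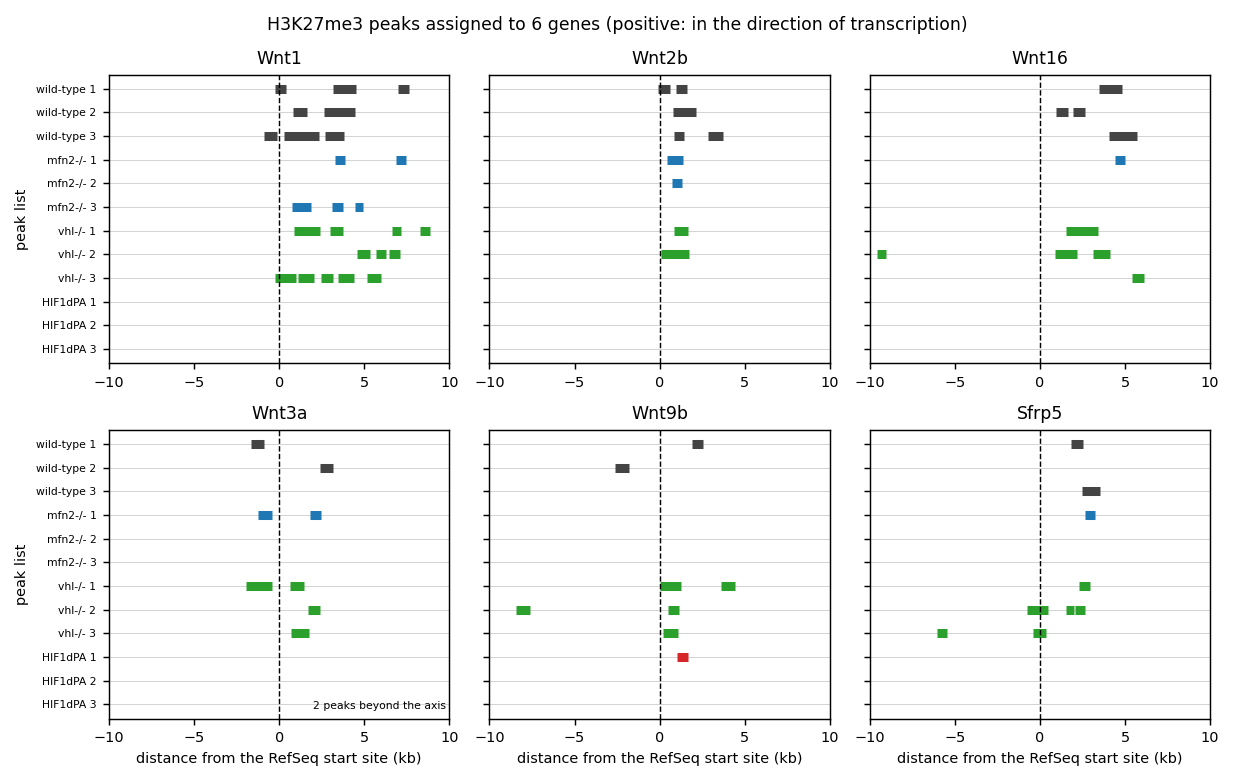
H3K27me3 peaks assigned to Wnt1, Wnt2b, Wnt16, Wnt3a, Wnt9b and Sfrp5 in the 12 lists (rows, coloured by genotype), drawn to scale by distance from the RefSeq start site in kb (x axis, positive in the direction of transcription); 2 Wnt3a peaks lie beyond the axis. Most peaks lie after the start, and the only peak in a HIF1dPA row is that of Wnt9b in replicate 1.

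Compared with wild-type, the mfn2-/- lists lost no Wnt system gene completely. Only 6 of the 37 were listed in every wild-type library, and 0 of these were absent from mfn2-/-. Of all genes, 92 (1.51%) were lost in this way, or 12.1% of the 762 listed in every wild-type library. In the other direction 1 gene, Wnt7b, of the 4 in all mfn2-/- lists had no wild-type peak. This held for 202 of all genes (3.32%), or 27.6% of the 731 in all mfn2-/- lists. Those 202 were counted on all chromosomes, the X included. On the X lay 30.0% to 30.3% of mfn2-/- peaks and none of the 37 genes. The share on autosomes alone was not computed. For vhl-/-, 0 of the 6 were lost, against 0.427% of all genes and 3.41% of those listed in every wild-type library. Of the 11 Wnt system genes in all vhl-/- lists, 2 were gained, Wnt7b and Fzd3. Gains were 37 of all genes (0.607%), or 4.41% of those in all vhl-/- lists. The comparisons with the 3 mutants share the same wild-type lists and are not independent of each other.

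Wnt7b (ENSMUSG00000022382, chr15:85535437-85581821), a ligand known from lung and kidney development, covered 0 bp in each wild-type list, 694, 504 and 964 bp in mfn2-/-, 592, 1179 and 897 bp in vhl-/- and 0 bp in each HIF1dPA list. Both mutants with values lay wholly above wild-type, and this was the lowest p among the Wnt system genes (exact permutation p = 0.00325, adjusted p 0.163). All 6 peaks were in the promoter classes, with scores up to 86.23. A merged region of 1640 bp held 4 of them, 1 from mfn2-/- and 3 from vhl-/-, and the other 2 mfn2-/- peaks lay apart from it. When any peak within 3000 bp of the RefSeq gene span was counted, wild-type replicate 2 also had a peak at Wnt7b, which the authors had assigned to the neighbouring AU022754, and the separation from wild-type was lost.

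Fzd3 (ENSMUSG00000007989, chr14:65192441-65262463), a receptor of the planar polarity branch, was the only receptor in at least 4 lists. It covered 0 bp in wild-type and HIF1dPA, 0, 0 and 1495 bp in mfn2-/- and 609, 878 and 826 bp in vhl-/- (exact permutation p = 0.145, adjusted p 0.608). All vhl-/- values were above all wild-type values, and its 5 peaks were all in promoter classes. Fzd10, the other receptor with a peak, covered 1309 bp in wild-type replicate 1 and 579 bp in vhl-/- replicate 2 and had none elsewhere. A further 5 peaks at the Fzd10 span were assigned to its antisense neighbour Fzd10os, and with these Fzd10 was in 6 lists, 1 of them of HIF1dPA.

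Wnt9b (ENSMUSG00000018486, chr11:103727362-103775272), a ligand known from kidney development, covered 633, 768 and 0 bp in wild-type, 0 bp in each mfn2-/- list, 2043, 1396 and 837 bp in vhl-/- and 625, 0 and 0 bp in HIF1dPA. The vhl-/- values lay above all others, and the exact permutation p was 0.00649 (adjusted p 0.187). The share of all genes with vhl-/- values above all others was not computed. In vhl-/- and in HIF1dPA replicate 1 the peaks met a common region of 1594 bp that no wild-type peak reached. Without wild-type replicate 3, Wnt9b was in all wild-type and no mfn2-/- list. The share of all genes separated with this library left out was not computed. The RefSeq span of Wnt9b overlaps that of Wnt3, and 10 of the 18 peaks within 3000 bp of it were assigned to Wnt3. Counting all of these, Wnt9b was in all 9 lists of wild-type, mfn2-/- and vhl-/- and in 1 HIF1dPA list, and its absence from mfn2-/- was lost.

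The other ligands in at least 4 lists showed no complete separation. Wnt8b (ENSMUSG00000036961, chr19:44493472-44514273), a ligand of the forebrain, covered 0, 1199 and 0 bp in wild-type, 1923, 587 and 711 bp in mfn2-/-, 1019, 0 and 847 bp in vhl-/- and 0 bp in HIF1dPA (exact permutation p = 0.209, adjusted p 0.683). It was thus in all mfn2-/- lists and in 1 wild-type list, and without wild-type replicate 2 it joined Wnt7b as gained in mfn2-/-. The share of all genes gained with that library left out was not computed. Wnt10b (ENSMUSG00000022996, chr15:98770712-98778206), which restrains fat cell formation, covered 1143, 0 and 922 bp in wild-type, 1236, 502 and 0 bp in mfn2-/- and 637, 1021 and 1427 bp in vhl-/-. Wnt7a (ENSMUSG00000030093, chr6:91363981-91411353), known to act on muscle stem cells, covered 793, 0 and 0 bp in wild-type, 0, 0 and 1046 bp in mfn2-/- and 1310, 0 and 1926 bp in vhl-/-. Neither had a HIF1dPA peak, the genotypes overlapped, and the exact permutation p was 0.166 for Wnt10b and 0.291 for Wnt7a (adjusted p 0.608 and 0.89).

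Among the antagonists, Sfrp2 and Sfrp5, which bind Wnt ligands, had a peak in all 3 vhl-/- lists. Sfrp2 (ENSMUSG00000027996, chr3:83765750-83774314) covered 678, 0 and 0 bp in wild-type, 0, 553 and 0 bp in mfn2-/-, 688, 2469 and 1138 bp in vhl-/- and 0 bp in HIF1dPA (exact permutation p = 0.0227, adjusted p 0.22). Every vhl-/- value exceeded every wild-type value, at the closest 688 against 678 bp. The share of all genes for which this held was not computed. The 3 vhl-/- lists shared a region of 2020 bp after the start site that no other list had, whereas the wild-type and mfn2-/- peaks lay over the promoter printed above.

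Sfrp5 (ENSMUSG00000018822, chr19:42197971-42202252) covered 689, 0 and 1073 bp in wild-type, 597, 0 and 0 bp in mfn2-/-, 673, 2382 and 1340 bp in vhl-/- and 0 bp in HIF1dPA (exact permutation p = 0.0318, adjusted p 0.282). Wild-type and vhl-/- values overlapped. The promoter window of Sfrp5 was covered in 2 vhl-/- lists and in no list of another genotype.

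Dkk1 (ENSMUSG00000024868, chr19:30545876-30549496), which blocks the Lrp co-receptors, was in 2 lists each of wild-type (1382 and 2767 bp), mfn2-/- (665 and 2183 bp) and vhl-/- (1351 and 2388 bp), with 0 bp in the remaining list of each and in HIF1dPA. These values overlapped throughout (exact permutation p = 0.447, adjusted p 1). Its peak of 2183 bp in mfn2-/- replicate 3 was the widest at any of the 37 genes and ranked 136 of 3679. Dkk2 (ENSMUSG00000028031, chr3:132085266-132180304), of the same family, covered 649 bp in mfn2-/- replicate 3, 811 and 610 bp in vhl-/- replicates 2 and 3, and 539 bp in HIF1dPA replicate 2, with 0 bp in the other lists (exact permutation p = 0.4, adjusted p 1). The HIF1dPA peak of Dkk2 lay within a vhl-/- peak.

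Peaks at the Wnt system genes were in promoter classes more often than peaks of the lists as a whole. In the 9 wild-type, mfn2-/- and vhl-/- lists, 52.4% to 75.0% of peaks at the Wnt system genes were in the authors' promoter classes, which reach 3 kb from a start site, and 41.2% to 53.0% of all peaks. The share was higher at the Wnt system genes in 9 of 9 lists. Distal intergenic peaks made up 6.67% to 29.4% and 28.9% to 34.1%, lower at the Wnt system genes in 9 of 9 lists. By role, 27 of 33 antagonist peaks (81.8%) and all 7 receptor peaks were in promoter classes. For ligands it was 68 of 135 (50.4%), close to the 47.2% of all peaks in the 12 lists. Over all roles, a larger share was also in the 3′ UTR class (10.9%, against 2.13% of all peaks). Of the 32 distal peaks, 3 were over 10 kb from the gene.

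**Figure D5:**
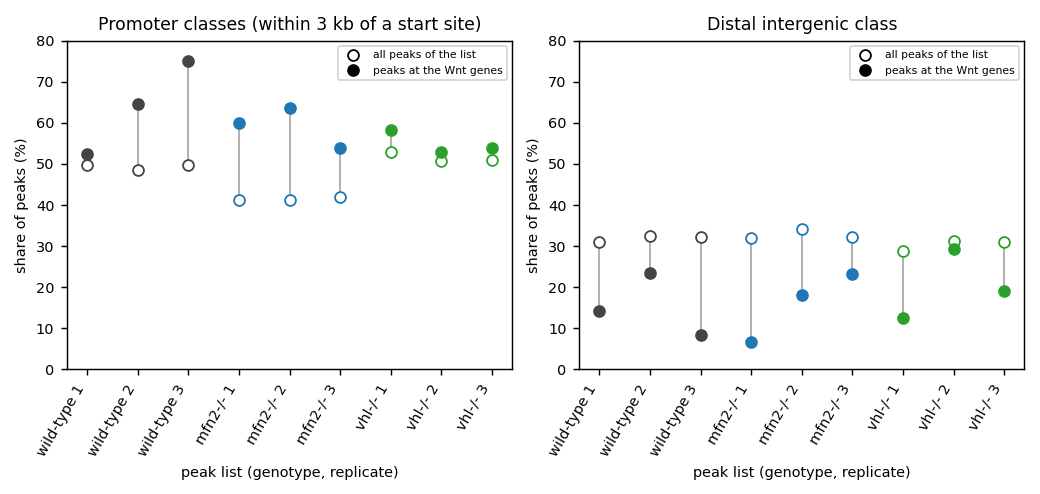
Share of peaks (%) in the promoter classes (left) and in the distal intergenic class (right) in each of the 9 wild-type, mfn2-/- and vhl-/- lists, for all peaks of the list (open) and for peaks at the Wnt system genes (filled), coloured by genotype. The filled points lie above the open ones on the left and below them on the right in all 9 lists, most closely in vhl-/- replicate 2.

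Promoter class did not mean that the start site was covered. For 17 genes with a peak and 1 start site in the RefSeq table, 97 of 138 peaks (70.3%) lay wholly after the start, 29 (21.0%) before it and 12 (8.7%) over it, and 81 (58.7%) were within 3000 bp. Over all 175 peaks of the 23 genes, the median peak was 743 bp wide and scored 61.38, against 734 bp and 62.1 for all peaks, and 20 of 175 (11.4%) scored at least 100, against 16.7% of all. Of the 175 peaks, 76 (43.4%) overlapped a peak of another library of the same genotype, against 45.2% of all peaks, and 125 (71.4%) overlapped a peak of any other list, against 65.8%. Merged over lists they formed 84 regions, of which 51 were seen in 1 list and 12 in at least 4.

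Several of the ligands are neighbours on a chromosome. Wnt10b and Wnt1, 11.7 kb apart on chromosome 15, had a peak in the same 6 lists out of the 9 that had either. Wnt10b was in 7 and Wnt1 in 8 of the 9 lists outside HIF1dPA, so sharing fewer than 6 was not possible. Wnt6 and Wnt10a, 6.7 kb apart on chromosome 1, shared 3 lists of 9, which were all the lists of Wnt6. Wnt9b and Wnt3 on chromosome 11 shared 5 of 10, and Wnt3a and Wnt9a, 16.1 kb apart on the same chromosome, 1 of 7. Wnt10a and Wnt3 were in every list but those of HIF1dPA, so that any other gene shared its lists with them outside that genotype.

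Other genes of the pathway were read from a list of 57. Of these, 22 (38.6%) had a peak and none was called, with 6 at an unadjusted p under 0.05. Peaks in at least 6 lists were found for Rspo3, a ligand that amplifies Wnt signals (10 lists), Lgr5, an R-spondin receptor (11), Wif1 and Sost, secreted inhibitors (11 and 9), Nkd1, an inhibitor inside the cell (7), and Lef1, a nuclear partner of β-catenin (10). These 6 genes were also the ones with a peak in all wild-type lists. Unlike the 6 ligands, 5 of them had a peak in a HIF1dPA list, Nkd1 being the exception: Lgr5 covered 716, 0 and 599 bp there, Wif1 602, 632 and 0 bp, Rspo3 1166 bp in replicate 3, Sost 908 bp in replicate 3 and Lef1 556 bp in replicate 2. In wild-type replicates 1, 2 and 3 the best peak of Lef1 stood at the upper 7.63%, 6.91% and 6.09% of the list by score, that of Wnt1 at 14.6%, 2.32% and 2.59%, and that of Wnt3a at 88.1%, 44.3% and 52.6%. Of the R-spondins and their receptors 7 of 9 had a peak, of the other secreted or membrane antagonists 6 of 11, of the co-receptors and other receptors 2 of 6, of the secretion genes 1 of 2, of the 14 intracellular genes 4, of the 7 planar polarity genes 1 and of the 8 nuclear genes 1. Lrp5 and Lrp6 had none.

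H3K9me3 was assigned to 5 of the 37 genes. Of these, 3 (Fzd3, Wnt2b and Wnt5a) were listed in a mutant and in no wild-type list, as were 2146 of the 5227 genes with any H3K9me3 peak (41.1%).

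The tissue label was compared with marker genes, for which H3K27me3 is a mark of silence. None of 8 myofiber genes, Acta1 and Ckm among them, had a peak in any list. Of the genes of other cells, Pdgfra of fibro-adipogenic cells was in 9 lists and Pax7 of muscle stem cells in 5, 1 of 4 endothelial, 1 of 4 leukocyte and 1 of 3 Schwann cell genes were in a single list, and the remaining genes were in none except Myf5 in 1. The share of nuclei from other cells was not tested.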

How the data were processed

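Chromatin of dissected myofibers was immunoprecipitated for H3K27me3 or H3K9me3 (24 libraries, 3 per genotype and mark) and 1 input was sequenced, which was not used. The submitters' processing notes name BWA 0.7.5, MACS, deepTools 3.5.0 and mm10. The authors deposited 1 peak list per library, each peak with a position, a gene, a feature class and a score from the peak caller, at least 50.0. No read totals were used, so the depth behind a peak is unknown and no interval for counting error is given.

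Each peak was counted for the gene the authors assigned. Covered length per gene and list was compared over 4 genotypes, and between wild-type and all mutants, with a two-sided exact permutation test on all 6091 genes and Benjamini-Hochberg adjustment, using Python 3.11.15, numpy 2.4.6 and pandas 2.3.3; the scripts were tested on simulated data and figures drawn with matplotlib 3.10.9. Genes in at least 4 lists are described one by one. Members and lists were chosen with earlier results of these data known. Alternatives were other score limits, equal list lengths, class filters and left-out libraries. Promoters are from RefSeq on GRCm38.p6, the same assembly as mm10. Gene spans are those of RefSeq.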

Additional observations from a re-analysis of the deposited data

Results flagged for a closer look

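Covered length at Wnt3a passed no adjusted test (exact permutation, adjusted p 0.343), but the vhl-/- and HIF1dPA lists lay on opposite sides of wild-type. Every vhl-/- list was above every wild-type list, with a difference of means of 906 bp, and every HIF1dPA list was below, with a difference of -729 bp. Wnt3a had no peak in the HIF1dPA lists, so the latter value is the wild-type mean with its sign changed, and it cannot be told apart from the shorter length of those lists. The difference between these effects was not tested, and both share the wild-type lists. Of the 762 genes with a peak in all wild-type lists, 51.0% had none in HIF1dPA and so also lay below wild-type there. The share of all genes that also had every vhl-/- list above wild-type was not computed.

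H3K9me3, the mark of constitutive heterochromatin, was measured in the same genotypes and entered no test above. Of 20998 H3K9me3 peaks, 7 were assigned to Wnt system genes, all distal intergenic. At 3 genes a peak was listed in a mutant and in no wild-type list, as it was for 41.1% of all genes with an H3K9me3 peak: Fzd3 in mfn2-/- replicate 1 (719 bp wide, 9.07 kb from the gene), Wnt2b in HIF1dPA replicate 2 (611 bp, 16.1 kb) and Wnt5a in HIF1dPA replicate 1 (725 bp, 91.7 kb). Each was in 1 list of 3. Fzd1 was listed in wild-type replicates 1 and 2 and mfn2-/- replicate 1, and Fzd9 in wild-type replicate 2.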

How the results depend on the processing

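Among counts recomputed under an alternative, 106 moved by less than the limit set for a change and 32 moved by more. With a score of at least 100, separations were 1 for wild-type over HIF1dPA, 1 for wild-type over mfn2-/- (both Wnt1), 0 for mfn2-/- over wild-type and 0 for vhl-/- over wild-type, and genes per list averaged 1.67, 1.00, 3.67 and 0 (wild-type, mfn2-/-, vhl-/-, HIF1dPA). For this and the other alternatives, the share of all genes separated was not computed. With 482 peaks a list, 0 genes separated wild-type from HIF1dPA and 0 were gained in mfn2-/- or in vhl-/-, and the means were 1.33, 1.00 and 2.00 (wild-type, mfn2-/-, vhl-/-). At that length wild-type replicate 1 and mfn2-/- replicate 2 held none of the genes, and no gene was in every vhl-/- list. These counts could therefore not differ from 0. With 474 peaks after X and Y were dropped, separations were 0 for HIF1dPA, mfn2-/- and vhl-/-, and means 1.33, 1.67 and 2.00. With promoter classes alone, 2 genes (Wnt1, Wnt2b) separated wild-type from HIF1dPA and means were 6.67 in mfn2-/- and 12.3 in vhl-/-; without distal peaks they were 9.0 and 15.3. Counting peaks within 3000 bp of RefSeq spans, an alternative chosen after seeing the data, left 0 genes gained in mfn2-/- and 1 (Fzd3) in vhl-/-. By unadjusted p, also chosen after seeing the data, 8 genes and 1 gene passed. Gains in mfn2-/- and vhl-/- were likewise counted after seeing the data.

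Leaving out 1 library gave 6 to 8 separations of wild-type over HIF1dPA, 0 to 2 over mfn2-/-, 0 over vhl-/-, 1 to 2 gained in mfn2-/- and 2 to 3 in vhl-/-, and 0 calls by either test; means ranged from 9.5 to 12.5, 9.5 to 10.5, 16.0 to 16.5 and 0.5 to 1.0. Separation needs fewer lists when a library is left out, and the share of all genes separated in this way was not computed. With the replicate block, 0 genes were called in either test (lowest adjusted p 0.455 and 0.807, exact permutation). Deviations of covered length from the genotype mean correlated between -0.0384 and 0.0559 for same-numbered libraries, and between -0.119 and 0.0676 for the others. No pairing by number was seen in these values, which cannot show whether same-numbered samples were handled together. Of 48 differences in covered length under 336 alternative values, 334 moved by less than the SD between replicates or not at all and 2 moved by more (HIF1dPA minus wild-type with peaks within 1000 bp joined, -3690 bp at Wnt1 and -1500 bp at Wnt2b). A sign change was seen in 23, none of them for HIF1dPA. The cause of these changes was not tested. Of the genes compared, only Wnt9b and Dkk2 had a HIF1dPA peak. For the others the HIF1dPA difference was the wild-type mean with its sign changed, or 0, and could not change sign.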
